A study of Oncorhynchus mykiss with 9 samples.

Results

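The liver miRNAs of rainbow trout held for 12 h under moderate hypoxia were compared with those of control fish. Of the 1413 entries in the deposited table of these libraries, 474 averaged at least 1 TPM in the 3 control and 3 moderate hypoxia libraries together and were examined. TPM here is the reads of an entry scaled so that all libraries have nearly the same total. Known miRNA names are borne by 277 of the 474, and 197 are predictions made from the reads. Because many entries repeat a sequence, they hold 396 distinct sequences. The last entry inside the limit had a mean of 1.001 TPM and the first outside it 0.993 TPM. The other 939 entries were too rare to test.

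Every fish is labelled wild-type and every sample liver tissue. The control group is labelled only as control, with no oxygen level or time given. The labels give no age, sex, oxygen level or number of fish per library. They do not say that the libraries come from separate fish, so every p-value measures only the spread between these libraries. In whole liver, fewer cells of a type and less miRNA per cell cannot be told apart. The 3 acute hypoxia libraries of the series entered 1 alternative fit only. No genome positions are given for the miRNAs in what was used here.

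A miRNA is cut from a hairpin RNA, and either arm of the hairpin can be loaded into an Argonaute protein. The seed, bases 2 to 8 from the 5′ end, largely decides which messenger RNAs are repressed, so miRNAs with the same seed are grouped in a family. In mammals low oxygen stabilises hypoxia-inducible factor, which switches on miR-210. In zebrafish the pair of miR-462 and miR-731, known from teleosts, is raised by the same factor.

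The miRNAs on which the results turn are shown first, as the deposited file gives them, 5′ to 3′, with the seed in capitals. The closing letter of a name (x, y or z) has no stated meaning. The first set shares the seed UGACCUA, and its members differ only in the base added at the 3′ end.
miR-192-x: aUGACCUAugaauugacagcca
miR-215-x: aUGACCUAugaauugacagccaa
miR-215-z: aUGACCUAugaauugacagccau
The second set holds the entries of miR-210, of which y and z share the seed UGUGCGU and x has another.
miR-210-y: cUGUGCGUgugacagcggcua
miR-210-z: cUGUGCGUgugacagcggcu
miR-210-x: aGCCACUGacuaacguacauug
The third set holds the x and y entries of the fish miRNA miR-459, together with miR-8159-x, which has the seed of miR-459-x and another body.
miR-459-x: uCAGUAACaaggauucauccug
miR-459-y: cAGGGAAUcucuguuacugg
miR-8159-x: uCAGUAACuggaaucugucccu
The fourth set holds the x and y entries of miR-731 and of miR-30.
miR-731-x: aAUGACACguuuucucccggauu
miR-731-y: cACCGGGAauuucgugucagca
miR-30-x: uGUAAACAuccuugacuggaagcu
miR-30-y: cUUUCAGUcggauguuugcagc
The last set holds other entries that rose or fell. The sequence of miR-17-x is also listed as miR-106-z.
miR-10-x: uACCCUGUagauccggauuugu
miR-22-y: aAGCUGCCagcugaagaacugu
miR-194-x: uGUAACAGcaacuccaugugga
miR-451-x: uAACCGUUaccauuacugaguuu
miR-144-y: cUACAGUAuagaugauguacu
miR-17-x: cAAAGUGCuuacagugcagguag
miR-125-x: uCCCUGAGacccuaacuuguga
miR-125-z: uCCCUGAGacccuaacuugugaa
miR-26-x: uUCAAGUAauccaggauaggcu
miR-126-y: uCGUACCGugaguaauaaugca

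The libraries did not stand alike, and this bears on every result. They held 9075431 to 10346821 reads in control and 11125143 to 16515713 under moderate hypoxia. On the first principal component, which held 64.5% of the variance, the controls lay at -13.0, -9.50 and -7.59 and the moderate hypoxia libraries at 12.7, 13.9 and 3.58. At 88.3% of the 94 entries of at least 100 TPM, library 3 of moderate hypoxia lay between libraries 1 and 2. In the other 5 libraries that share was 4.26 to 42.6%. The median SD of log2(TPM + 1) over 197 entries of at least 10 TPM was 0.142 in moderate hypoxia and 0.355 in control. Whether library 3 is independent of libraries 1 and 2 was not tested. If it is not, the p-values are too small, so calls are also given without it.

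Libraries 1 and 2 of moderate hypoxia also held entries that the others nearly lacked. Entries with names from the imprinted cluster of placental mammals, 37 in number, summed to 252 and 307 TPM there, to 3.94 TPM in library 3, and to 3.02 to 4.52 TPM in the controls. In all, 118 entries exceeded each of the other 4 libraries over 4 times in both. They summed to 597 and 695 TPM in libraries 1 and 2 and to 27.3 to 30.3 TPM elsewhere. Of these, 27 were tested and 2, miR-151-y and miR-3966-z, passed as higher. All 10 tested members of the imprinted cluster passed as higher once library 3 was left out, and none passed with it. All 10 are among the 27, which were picked for being high in libraries 1 and 2. The outcome without library 3 was thus largely set by that choice and is no separate support. Where these reads come from was not tested.

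**Figure D1:**
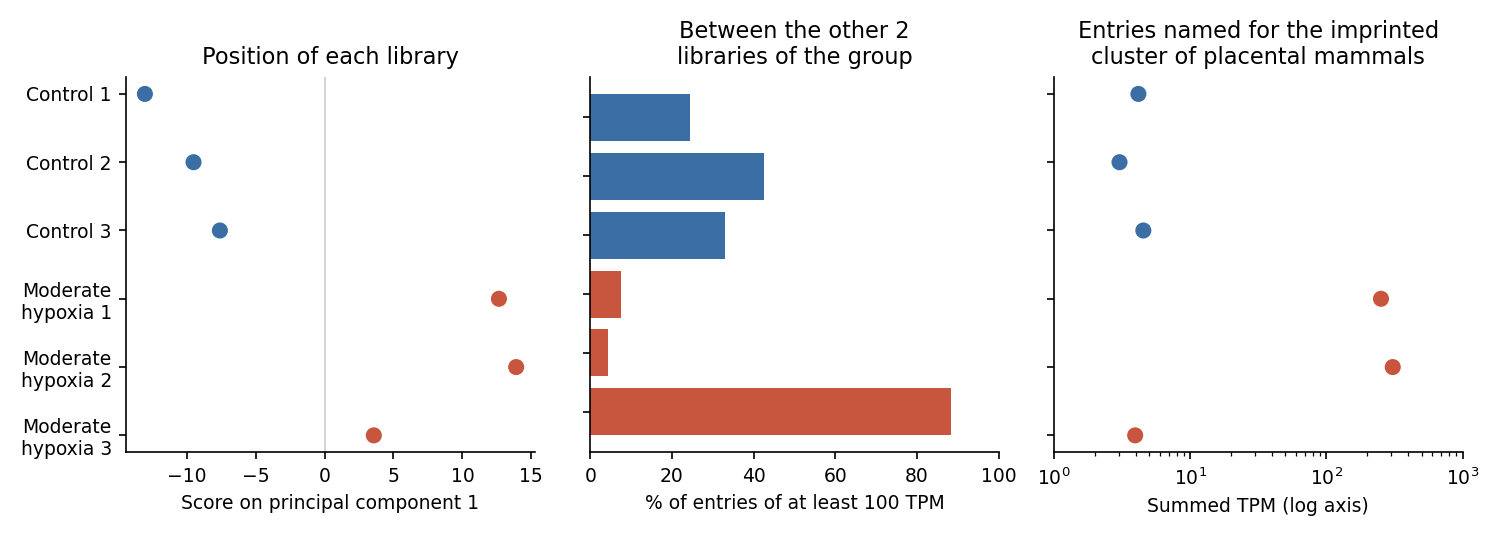
The 6 libraries, 3 of control in blue and 3 of moderate hypoxia in red, by score on the first principal component, by the percentage of entries of at least 100 TPM at which a library lies between the other 2 of its group, and by the summed TPM of the entries named for the imprinted cluster of placental mammals (log axis). Moderate hypoxia library 3 lies nearest the controls on the component, lies between its partners at 88.3% of entries, and has 3.94 TPM of the imprinted entries against 252 and 307 TPM.

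In TPM, more entries were lower than higher under moderate hypoxia. With limma on log2(TPM + 1) and Benjamini-Hochberg adjustment over the 474 entries, 81 passed an adjusted p of 0.05, or 17.1%. Of these, 17 were higher (3.59%) and 64 lower (13.5%). The 3 values of a group did not overlap those of the other at 209 entries (44.1%), 62 of them higher and 147 lower, among them all 81 called. Changes of at least 2-fold made up 13 of the higher and 43 of the lower calls.

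The balance of the directions depended on the scaling. TPM values of a library add to a fixed total, and the 10 most abundant entries took 77.7, 82.2 and 83.5% of it in control and 84.4, 84.9 and 84.8% under moderate hypoxia. The median log2 change of all entries was -0.24. When libraries were scaled by a trimmed mean of M values, the median was 0.12, and 35 entries passed as higher and 25 as lower. The split was 32 to 35 with the median of ratios, 24 to 26 with quantile normalization and 21 to 36 with miR-122-x left out of the library total. Without moderate hypoxia library 3 it was 40 to 38. With the entries over 4 times higher in libraries 1 and 2 left out as well, it was 9 to 26. That setting was chosen after seeing the data. Of the 81 calls 33 passed under each of the 4 scalings, and 20 of those, 6 higher and 14 lower, also passed without each library in turn. No call changed direction under any setting in which it was compared. The fit with 1 feature per distinct sequence was not compared with the calls in this way.

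**Figure D2:**
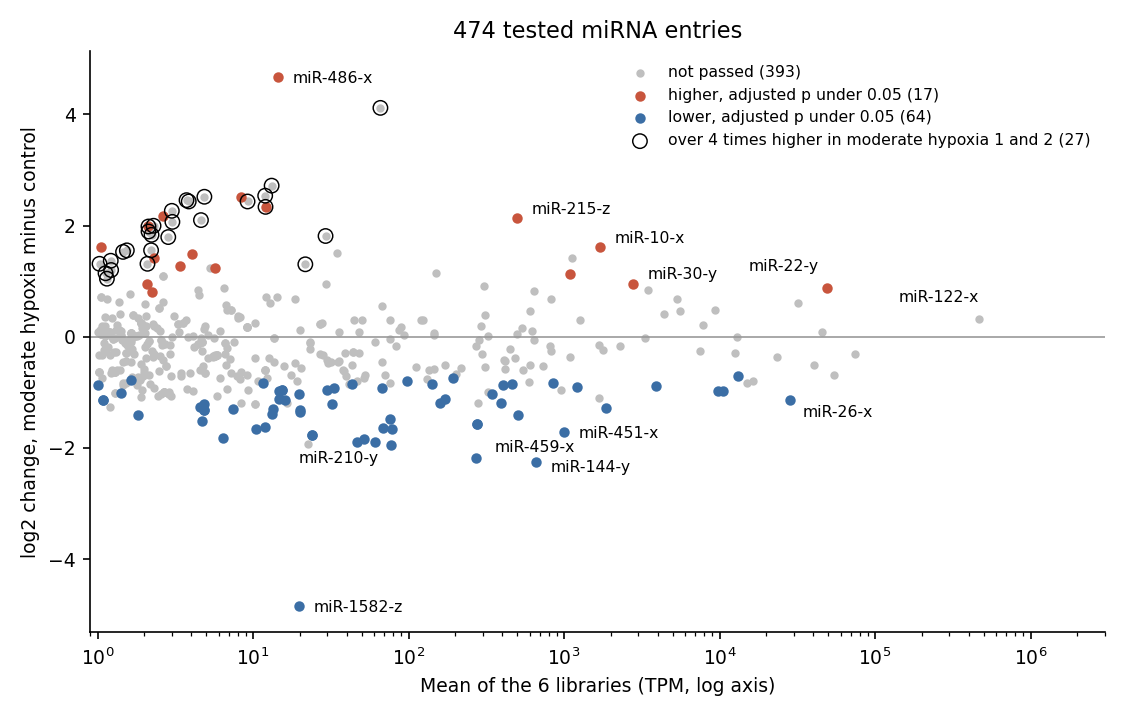
Log2 change (moderate hypoxia minus control) of 474 miRNA entries against their mean over the 6 libraries in TPM (log axis), with entries past an adjusted p of 0.05 in red (17 higher) and blue (64 lower). Open circles mark the 27 entries over 4 times higher in moderate hypoxia libraries 1 and 2, and most of these are grey and lie above 0 at low abundance.

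The miR-192/215 family is made in liver and gut in mammals. Its 2 longer forms rose, while the shortest form and the sum of the family did not pass. The level of miR-215-z was 148, 226 and 185 TPM in the control libraries and 801, 825 and 798 TPM under moderate hypoxia. Every moderate hypoxia library was thus above every control. The log2 change was 2.13 (SE 0.199, adjusted p = 0.00110; without library 3, adjusted p = 0.000988). The form ending in A, miR-215-x, read 708, 607 and 758 TPM in control and 1624, 1416 and 1473 TPM under moderate hypoxia, again without overlap. It rose by 1.13 (SE 0.171, adjusted p = 0.00855; without library 3, adjusted p = 0.0201).

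The shortest and most abundant form, miR-192-x, read 31381, 20627 and 24408 TPM in control and 40215, 36412 and 38314 TPM under moderate hypoxia. Its groups did not overlap either, but its log2 value of 0.61 (95% interval 0.14 to 1.07) did not pass (adjusted p = 0.0702). It passed under each of the 4 other scalings, with values of 0.81 to 1.03. Summed over the seed UGACCUA, of which miR-192-x held 95.2%, the level was 26349 ± 5458 TPM in control and 40626 ± 1994 TPM under moderate hypoxia (SD, n = 3). Its log2 value of 0.64 did not pass (limma adjusted p = 0.0511; without library 3, adjusted p = 0.125). In mammals miR-194 is cut from the same transcripts as miR-192 and miR-215. Here miR-194-x went the other way, from 2880, 2801 and 2260 TPM in control to 1094, 1059 and 1089 TPM. It fell by 1.28 on the log2 scale (SE 0.170, adjusted p = 0.00620; without library 3, adjusted p = 0.0116). Of 7 tested entries named miR-192, miR-194 or miR-215, 2 rose, 1 fell and 4 did not pass, and their median log2 change was 0.03. Over all entries 3.59% were higher and 13.5% lower, with a median of -0.24.

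Other abundant entries rose as well. The level of miR-10-x, whose genes lie in the Hox clusters, was 867, 874 and 774 TPM in control and 2514, 2621 and 2525 TPM under moderate hypoxia. The groups were far apart and the libraries within each close together. The log2 change was 1.61 (SE 0.156, adjusted p = 0.00110; without library 3, adjusted p = 0.00254). The level of miR-22-y, an abundant miRNA of liver and muscle, was 27380, 44465 and 33305 TPM in control and 65234, 61066 and 63671 TPM under moderate hypoxia. Its rise of 0.88 (SE 0.212, adjusted p = 0.0278) did not pass without library 3 (adjusted p = 0.0820), where the log2 value was 0.878. The call was also lost without moderate hypoxia 1, moderate hypoxia 2 or control 3.

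The hepatocyte miRNA miR-122-x, which in mammals supports lipid metabolism, was the most abundant entry. It read 307409, 459053 and 500523 TPM in control and 525228, 504743 and 518378 TPM under moderate hypoxia. Control 1 was low and the other 2 controls lay just under the moderate hypoxia libraries. The log2 value was 0.32 (95% interval -0.20 to 0.84, adjusted p = 0.322) and did not pass. The share of the pool held by all miR-122 entries was 42.1 ± 10.2% in control and 51.5 ± 1.04% under moderate hypoxia (SD, n = 3). An exact two-sided permutation test gave p = 0.1, the smallest that 3 against 3 allows, and without control 1 the difference shrank from 9.40 to 3.64 percentage points. The minor entry miR-122-y varied widely in control, at 175, 1357 and 737 TPM, against 1751, 1253 and 1516 TPM (log2 value 1.41, adjusted p = 0.152).

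Of the list of liver-enriched miRNAs, 26 of 27 entries were tested. Of these 4 rose (miR-215-z, miR-215-x, miR-30-y and miR-22-y), 1 fell (miR-194-x) and 21 did not pass, beside 3.59% higher and 13.5% lower over all entries. The list's median log2 change was 0.05, beside -0.24 over all entries tested. Without library 3 of moderate hypoxia 3 of them passed as higher and 1 as lower. The defining miRNA of hepatocytes, miR-122-x, had the highest level in all 6 libraries.

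**Figure D3:**
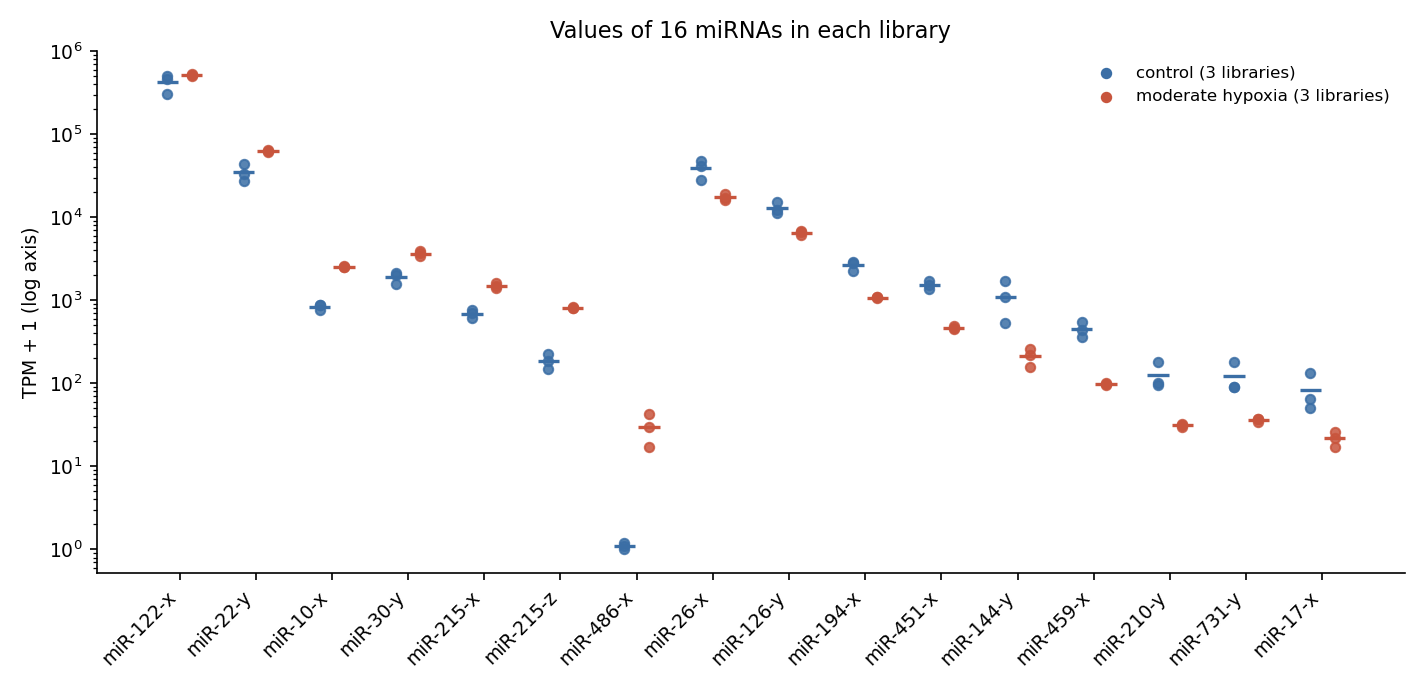
Values of 16 miRNAs in each of the 3 control (blue) and 3 moderate hypoxia (red) libraries, as TPM + 1 on a log axis, with a bar at each group's mean. Apart from miR-122-x, every entry shown passed as higher or lower, and the moderate hypoxia points of most lie closer together than those of control.

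Of the hypoxia miRNA of mammals, miR-210, 2 of 3 entries fell and none rose, beside 13.5% lower and 3.59% higher over all entries. The entry miR-210-y, which has the seed of the arm known to act in mammals, read 178, 99.4 and 94.9 TPM in control and 30.9, 31.3 and 28.7 TPM under moderate hypoxia. It fell by 1.94 on the log2 scale (SE 0.270, adjusted p = 0.00620; without library 3, adjusted p = 0.00637). The entry 1 base shorter, miR-210-z, read 114, 114 and 110 TPM against 49.5, 32.9 and 38.0 TPM. It fell by 1.49 (SE 0.207, adjusted p = 0.00620). In both, each moderate hypoxia library was below every control, and both passed under all 4 scalings and all 6 leave-outs. Summed over the seed UGUGCGU, the level went from 237 ± 48.4 to 70.4 ± 8.77 TPM (SD, n = 3; log2 change -1.72, adjusted p = 0.00438). From the other seed, miR-210-x read 96.6, 97.3 and 144 TPM in control and 140, 134 and 135 TPM under moderate hypoxia. These groups overlapped, and its log2 value was 0.30 (95% interval -0.20 to 0.79, adjusted p = 0.337).

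The teleost pair also split. The level of miR-731-y was 182, 89.2 and 90.6 TPM in control and 33.2, 36.1 and 36.8 TPM under moderate hypoxia. It fell by 1.66 (SE 0.298, adjusted p = 0.0131; without library 3, adjusted p = 0.0167), although not past the threshold under 1 of the 4 scalings. Its partner miR-731-x read 186, 353 and 338 TPM against 246, 253 and 248 TPM, and the groups overlapped (log2 value -0.17, 95% interval -0.79 to 0.45, adjusted p = 0.682). The abundant miR-462-x read 1170, 2177 and 2052 TPM against 1524, 1597 and 1589 TPM (-0.14, 95% interval -0.74 to 0.45, adjusted p = 0.729). Control 1 was the lowest library for both, and without it they passed as lower, with log2 values of -0.43 for miR-462-x and -0.47 for miR-731-x. Of 5 tested entries of the pair 1 fell, none rose and 4 did not pass, beside 13.5% lower and 3.59% higher over all entries.

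Of the list of hypoxia-responsive miRNAs of mammals, 47 entries were present and 41 tested. None rose, 11 fell and 30 did not pass. The median log2 change was -0.57, beside -0.24 over all entries, and the share that fell, 11 of 41, stands beside 13.5% over all entries. The 11 hold 10 distinct sequences. Without library 3 of moderate hypoxia 5 fell, 5 of the 11 passed under none of the 4 scalings, and both miR-210 entries passed under every scaling and leave-out. Of the others, miR-26-x was the most abundant, at 48056, 28221 and 41315 TPM in control and 16128, 18845 and 17171 TPM under moderate hypoxia. It fell by 1.14 (SE 0.229, adjusted p = 0.0180; without library 3, adjusted p = 0.0421) and passed under 1 of the 4 scalings. Also lower were miR-27-y, miR-103-z, miR-107-y, miR-106-z, miR-429-y and all 3 tested entries of miR-24. The entries miR-103-z and miR-107-y have an identical sequence and are 1 measurement. Together with miR-429-y, miR-24-x and miR-24-z they are the 5 that passed under no scaling, and all 5 were also lost without library 3.

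Of the miRNAs of red blood cells, which in fish keep their nucleus, 4 of 6 tested entries fell, beside 13.5% lower over all entries. In vertebrates miR-451 and miR-144 come from a shared transcript switched on in erythroid cells. The level of miR-451-x was 1723, 1549 and 1361 TPM in control and 496, 450 and 460 TPM under moderate hypoxia. It fell by 1.71 (SE 0.170, adjusted p = 0.00110; without library 3, adjusted p = 0.00239). The level of miR-144-y was 1700, 1091 and 530 TPM in control and 258, 158 and 221.5 TPM under moderate hypoxia. It fell by 2.25 (SE 0.415, adjusted p = 0.0143; without library 3, adjusted p = 0.0137). Both were lower in every moderate hypoxia library than in any control. The other 2 that fell, miR-144-x and miR-451-z, passed under none of the 4 scalings and were lost without library 3. The mean of miR-451-z was 1.001 TPM, just inside the limit. It met that limit only through control, where it was high, so its call is no separate support.

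Against these stood miR-486-x, abundant in red blood cells of mammals. It read 0.193 TPM, no read and 0.110 TPM in control and 41.7, 15.9 and 29.2 TPM under moderate hypoxia. The reads numbered 3 in all controls and 1184 in all moderate hypoxia libraries, a ratio of 276 (95% exact counting interval 94.1 to 1338). Its fitted log2 change of 4.67 (adjusted p = 0.000726) depends on the added 1 TPM. Of the 6 red blood cell entries tested 1 rose, 4 fell and 1 did not pass, and without library 3 of moderate hypoxia 1 rose and 2 fell. Their summed level was 2017 to 3512 TPM in control and 679 to 872 TPM under moderate hypoxia.

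Markers of other cells that whole liver can hold were lower or did not pass. The endothelial miR-126-y read 15449, 12367 and 11407 TPM in control and 6195, 6906 and 6593 TPM under moderate hypoxia. It fell by 0.98 (SE 0.180, adjusted p = 0.0140; without library 3, adjusted p = 0.0421). This call passed under 3 of the 4 scalings. The other endothelial entry, miR-126-x, did not pass (log2 value -0.50, adjusted p = 0.0996). The 2 endothelial entries summed to 11980 to 16160 TPM in control and 6719 to 7379 TPM under moderate hypoxia, most of it miR-126-y. Of 8 leukocyte entries tested 2 fell, miR-223-y and miR-146-x, beside 13.5% lower over all entries. Both calls were lost without library 3 (adjusted p = 0.0853 and 0.119) and passed under none of the 4 scalings. The leukocyte list summed to 14980 to 21400 TPM in control and 10700 to 10960 TPM under moderate hypoxia. Most of that sum is miR-146-x, with means of 16316 and 9893 TPM, so it does not stand for the list. Without overlap 2 of the 8 lay higher and 3 lower, beside 62 and 147 of all 474 entries. The log2 value of miR-150-x was 1.15 and did not pass (adjusted p = 0.180). Of 10 entries of stroma and smooth muscle 1 fell (miR-214-y) and of 9 of epithelium 1 fell (miR-429-y), both lost without library 3 and under every scaling. Of 6 entries of striated muscle, 7 of nervous tissue and 3 of pancreas none passed, although 2 of nervous tissue passed as higher without library 3, both over 4 times higher in libraries 1 and 2. The part of cell makeup in the other changes was not tested.

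The clusters that drive proliferation in mammals, miR-17-92 and its relatives, had 17 tested entries. Of these 6 fell and 11 did not pass, beside 13.5% lower over all entries. The 6 hold 5 distinct sequences. The median log2 change of the 17 was -0.74, beside -0.24 over all entries, and without library 3 of moderate hypoxia 4 fell. The level of miR-17-x was 133, 64.8 and 49.8 TPM in control and 16.1, 24.9 and 21.2 TPM under moderate hypoxia. It fell by 1.84 (SE 0.370, adjusted p = 0.0181; without library 3, adjusted p = 0.0238). The identical sequence listed as miR-106-z had similar values and is no separate evidence. The other arm, miR-17-y, fell by 1.29 (adjusted p = 0.0131) and alone of the 6 passed under every scaling and leave-out. Also lower were miR-18-x, miR-19-z and miR-25-y, of which the last 2 passed under no scaling and were lost without library 3.

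The clustered miR-23, miR-27 and miR-24 had 9 tested entries, of which 4 fell and none rose, beside 13.5% lower over all entries. Without library 3 of moderate hypoxia 1 of the 4 was lower (miR-24-y), and miR-24-x and miR-24-z also passed under none of the 4 scalings. The most abundant of the 4, miR-27-y, a miRNA of lipid metabolism in mammals, read 6336, 4667 and 4214 TPM in control and 2970, 2617 and 2522 TPM under moderate hypoxia. It fell by 0.89 (SE 0.203, adjusted p = 0.0234), and the call was lost without library 3 (adjusted p = 0.0799). The level of miR-24-y was 735, 460 and 446 TPM against 265, 217 and 220 TPM. It fell by 1.19 (SE 0.238, adjusted p = 0.0180; without library 3, adjusted p = 0.0421). Every moderate hypoxia value of both was below every control value.

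The list that joins miR-125 to miR-10, miR-100 and miR-99 had 11 tested entries. Of these 2 rose, 2 fell and 7 did not pass. Without library 3 of moderate hypoxia 1 rose and 2 fell. These counts stand beside 3.59% higher and 13.5% lower over all entries. The falls were of miR-125-x, which passed under 2 of the 4 scalings, and miR-99-z, which passed under all 4. The level of miR-125-x was 13216, 14255 and 14060 TPM in control and 6534, 7747 and 6914 TPM under moderate hypoxia. It fell by 0.97 (SE 0.160, adjusted p = 0.0111; without library 3, adjusted p = 0.0388). The abundant miR-100-x read 120350 TPM in control 1 and 36452 and 55287 TPM in the other controls, against 35826, 42432 and 38522 TPM. Its groups overlapped, and its log2 value of -0.68 did not pass (adjusted p = 0.239).

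A list drawn up for fish miRNAs had 24 tested entries, of which 6 fell and none rose, beside 13.5% lower over all entries. Its members, miR-454, miR-455 and miR-2188 among them, were not checked to be confined to teleosts. Without library 3 of moderate hypoxia 3 fell (miR-459-x, miR-731-y and miR-722-y). Of the 6, 4 passed under none of the 4 scalings. The largest change among them was that of miR-459-x, which read 441, 544 and 357 TPM in control and 94.7, 99.4 and 96.1 TPM under moderate hypoxia. It fell by 2.18 (SE 0.203, adjusted p = 0.00110; without library 3, adjusted p = 0.000970). The entry that shares its seed, miR-8159-x, read 23.3, 7.40 and 21.9 TPM in control and 25.7, 81.6 and 48.7 TPM under moderate hypoxia. These groups did not overlap either, but the log2 value of 1.52 did not pass (adjusted p = 0.0777). Summed over the seed CAGUAAC the level fell from 465 ± 86.6 to 149 ± 30.5 TPM (SD, n = 3; log2 change -1.64, adjusted p = 0.00684). The share of the sum held by miR-459-x was 96.2% in control and 65.0% under moderate hypoxia. Also lower were miR-731-y and the 4 that passed under no scaling, miR-722-x, miR-722-y, miR-722-z and miR-2188-y.

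Of the other lists, glucose and lipid metabolism had 7 of 29 entries lower (6 distinct sequences) and none higher, beside 13.5% lower over all entries. Without library 3 of moderate hypoxia the balance turned to 1 lower and 3 higher, and 5 of the 7 passed under none of the 4 scalings. Oxidative stress and inflammation had 6 of 21 entries lower and none higher, which without library 3 became 2 lower and 2 higher. The entries higher without library 3 in both lists are among those over 4 times higher in libraries 1 and 2. Of 3 entries of the miR-183 cluster, miR-182-x was higher and miR-96-x lower, at under 6 TPM in each library. The mean of miR-182-x was 0.778 TPM in control and 3.84 TPM under moderate hypoxia, and that of miR-96-x 2.35 and 0.956 TPM. Each met the limit of 1 TPM only through the group in which it was high. The 2 calls are therefore no separate support. That of miR-96-x passed under none of the 4 scalings and was lost without library 3. That of miR-182-x was lost without control 2, moderate hypoxia 1 or moderate hypoxia 2. The miR-29 and miR-26 families each had 1 of 3 entries lower, and that of miR-29 was lost without library 3. None passed of 4 let-7 entries, 3 of miR-181, 6 of miR-15 and miR-16, 6 of miR-148 and miR-152, 6 of miR-221 and miR-222 and 3 of miR-101. Without library 3 of moderate hypoxia 1 entry of miR-221 and miR-222 passed as higher, beside 40 of 474 over all entries. The most abundant entry of these lists, let-7-x, read 40669 to 48158 TPM in control and 46610 to 47673 TPM under moderate hypoxia (log2 value 0.08, 95% interval -0.29 to 0.46).

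Some of the calls above did not pass once 1 library was left out. Its group is then smaller, and the total of calls fell from 81 to 32 without moderate hypoxia 1 or 2. A lost call therefore does not show that the change rested on that library. The log2 change of miR-125-x, for example, stayed at -1.04 to -0.92 over the 6 leave-outs. Without moderate hypoxia library 1 the calls of miR-125-x (adjusted p = 0.0552), miR-126-y, miR-30-y, miR-17-x and miR-99-z (0.0628 at most) and miR-26-x (0.0629) were lost. Without library 2 those of miR-126-y, miR-26-x, miR-30-y and miR-24-y (adjusted p = 0.0652) were lost. Without control 2 those of miR-144-y (adjusted p = 0.0540), miR-17-x, miR-99-z and miR-27-y were lost. The calls named here are not all that were lost. Those of miR-22-y, miR-27-y, miR-722-y and miR-182-x were each lost without moderate hypoxia 1 and also without moderate hypoxia 2. The calls of miR-215-z, miR-215-x, miR-10-x, miR-194-x, miR-451-x, miR-459-x, miR-731-y and both miR-210 entries passed without each of the 6 libraries in turn. That of miR-486-x did so too, but this entry met the limit on mean TPM only through moderate hypoxia. Its passing is therefore no separate support.

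Counted by seed, 60 of 329 families passed (18.2%), 15 higher and 45 lower. For miR-10-x, miR-451-x, miR-194-x, miR-126-y, miR-144-y and miR-30-y the family holds no other sequence, so family and entry are the same measurement.

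The x and y entries of a miRNA often moved apart. For 41 known miRNAs both letters averaged at least 10 TPM, a stricter limit than that of the test of single entries. The difference of their log2 changes was fitted within libraries with limma, so that library scaling largely cancels. The pairs were examined after the values of their members had been seen. The difference passed for 11 of 41 (26.8%). The ratio of miR-210-x to miR-210-y was 0.545, 0.980 and 1.51 in control and 4.41, 4.18 and 4.57 under moderate hypoxia. The changes differed by 2.24 on the log2 scale (SE 0.367, adjusted p = 0.00445; without library 3, adjusted p = 0.0288). The ratio of miR-459-x to miR-459-y went the other way, from 4.09, 8.89 and 5.21 to 1.27, 1.34 and 1.32. The difference was -2.13 (SE 0.311, adjusted p = 0.00368; without library 3, adjusted p = 0.0288).

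The level of miR-459-y did not pass, at 107, 60.3 and 67.7 TPM in control and 74.2, 73.9 and 72.7 TPM under moderate hypoxia (log2 value -0.04, 95% interval -0.62 to 0.53). For miR-30 the minor entry rose while the major did not. The level of miR-30-y was 2110, 2021 and 1571 TPM in control and 3885, 3414 and 3695 TPM under moderate hypoxia, a rise of 0.96 (SE 0.182, adjusted p = 0.0152; without library 3, adjusted p = 0.0455). The level of miR-30-x was 48840, 58259 and 35843 TPM against 32762, 33136 and 32801 TPM (log2 value -0.51, adjusted p = 0.121). The ratio of x to y went from 23.1, 28.8 and 22.8 to 8.43, 9.70 and 8.88, and the difference was -1.46 (SE 0.220, adjusted p = 0.00368; without library 3, adjusted p = 0.0288).

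These 3 pairs passed in all 6 leave-outs, and without library 3 of moderate hypoxia they were the only ones to pass. The difference also passed, with all libraries, for miR-455, miR-146, miR-26, miR-143, miR-125, miR-7132, miR-27 and miR-152. For miR-731 the ratio of x to y was 1.02, 3.92 and 3.70 in control and 7.23, 6.85 and 6.61 under moderate hypoxia. Every moderate hypoxia library was above every control, but the difference of 1.49 did not pass (SE 0.498, adjusted p = 0.0564).

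**Figure D4:**
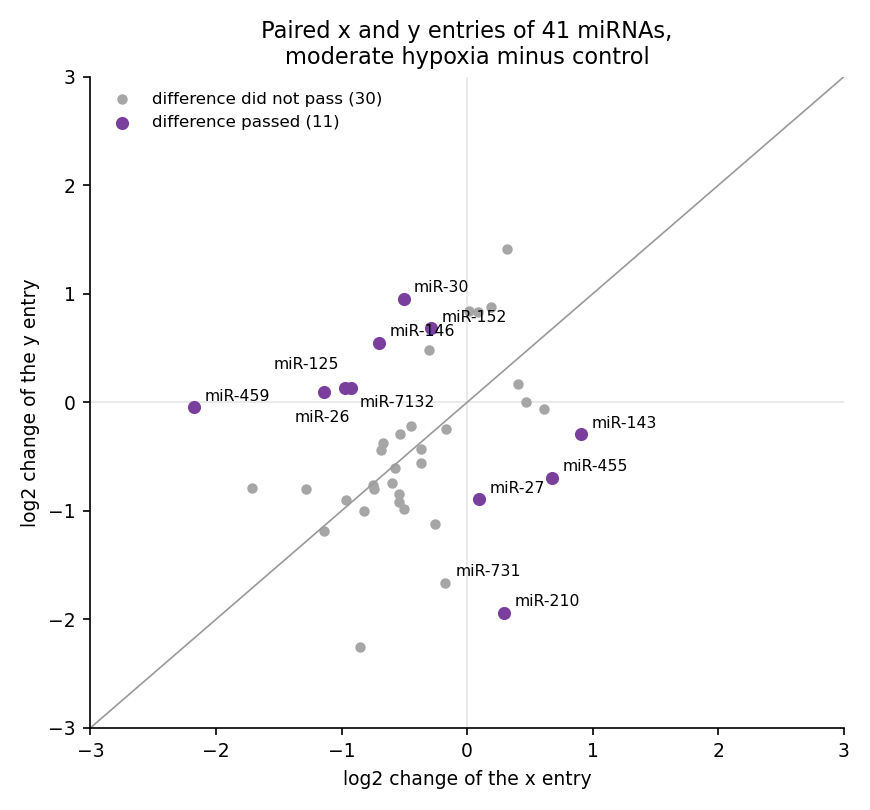
Log2 change of the y entry against that of the x entry (moderate hypoxia minus control) for 41 miRNAs with both entries of at least 10 TPM. The line marks where both changes are equal. The 11 pairs whose difference passed are purple and named, with miR-210 and miR-459 farthest from the line, and miR-731, which did not pass, is named in grey.

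Entries that differ only by bases added at the 3′ end also changed unequally. There were 14 such pairs of sequences with up to 3 added bases and both members of at least 10 TPM. Pairs with a rarer member were left out. These pairs were likewise examined after their values were seen. The difference of the log2 changes passed for 6 of the 14 (42.9%), and in all 6 the longer form gained on the shorter. Among the 6, the pairs of miR-215-z and of miR-215-x share the shorter entry miR-192-x, so they are not independent. The ratio of miR-215-z to miR-192-x, which lacks its last U, was 0.00475, 0.0110 and 0.00762 in control and 0.0199, 0.0227 and 0.0209 under moderate hypoxia. The difference was 1.52 (SE 0.272, adjusted p = 0.00106; without library 3, adjusted p = 0.000287). The ratio of miR-125-z to miR-125-x, which lacks its last A, was 0.0908, 0.0884 and 0.0693 in control and 0.191, 0.203 and 0.200 under moderate hypoxia. The difference was 1.27 (SE 0.185, adjusted p = 0.000371; without library 3, adjusted p = 0.000618).

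These 2 pairs passed in all 6 leave-outs. The other 4 passed with differences of 0.52 to 0.74: miR-23-z over miR-10174-y, miR-92-z over miR-235-y, miR-221-y over miR-221-z and miR-215-x over miR-192-x. With 1 library left out 2 to 6 of the 14 pairs passed. Not all longer forms gained. The pairs of miR-210, miR-99, miR-722, miR-100 and miR-24 had differences of -0.45 to -0.11, none of which passed.

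**Figure D5:**
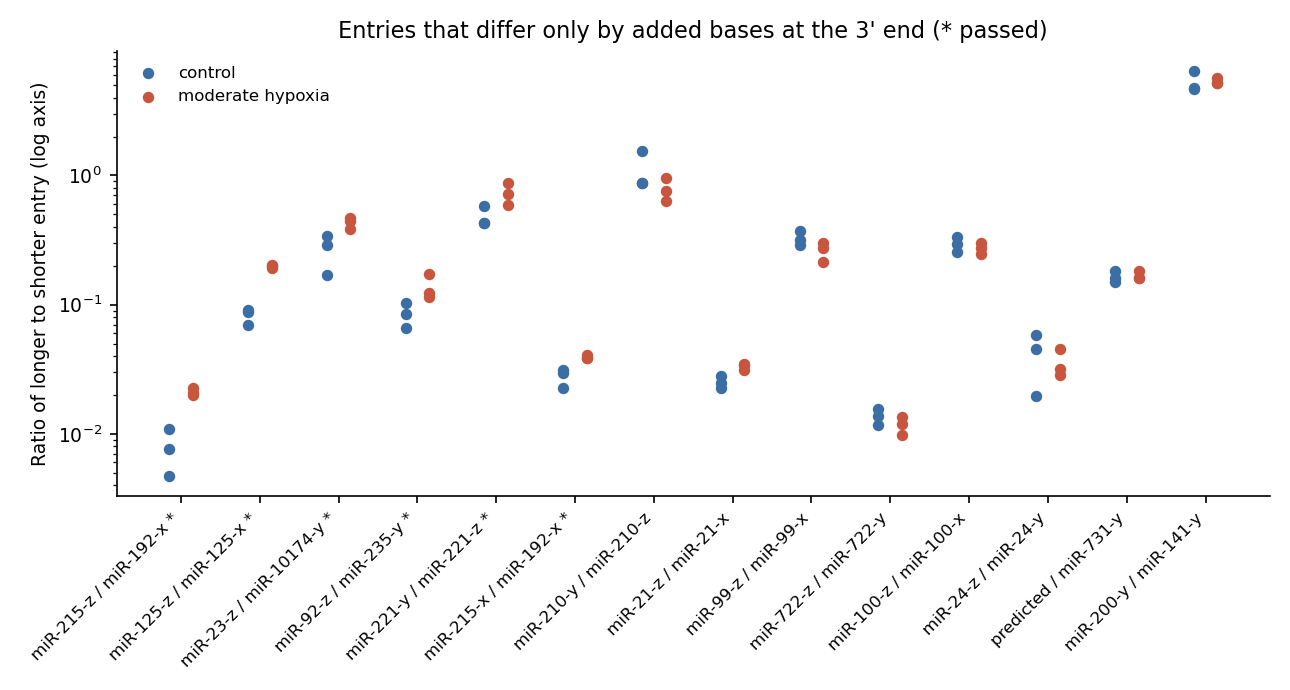
Ratio of the longer to the shorter entry (log axis) in each control (blue) and moderate hypoxia (red) library for 14 pairs. The members of a pair differ only by added bases at the 3′ end and each averaged at least 10 TPM. An asterisk marks the 6 pairs whose difference passed, in all of which the red points lie above the blue ones.

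Several of the falls were of short entries. Of the 25 tested entries of 18 or 19 nt, 12 were lower (48%) and 1 higher. The 25 hold 22 distinct sequences, and the 12 hold 10. Of 449 entries of 20 nt or more, 52 were lower (11.6%). The difference between these shares was not tested, and without library 3 of moderate hypoxia they were 11 of 25 and 27 of 449. Most of the short ones end in CCA or in CCA with further A, the letters that also close mature transfer RNAs. This grouping was made after the values were seen. Of 17 such entries, 10 were lower (8 distinct sequences) and none higher, and their median log2 change was -1.22. Without library 3 of moderate hypoxia 9 were lower. The call of miR-7977-z was lost without control 2 (adjusted p = 0.0661) and that of miR-4454-z without each of 4 libraries. The examples shown here, with the closing letters in lower case, are among the largest falls.
miR-7977-z: uUCCCGGCcaaugcacca
miR-4454-z: aUCCGGGUcacggcacca
predicted entry, listed under 2 names: uCCCGGGUuucggcacca

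The level of miR-7977-z was 94.1, 121 and 94.7 TPM in control and 50.5, 19.3 and 34.5 TPM under moderate hypoxia, a log2 change of -1.63 (adjusted p = 0.0194). The level of miR-4454-z was 81.6, 68.8 and 135 TPM against 44.0, 11.2 and 27.1 TPM, a change of -1.89 (adjusted p = 0.0348) that passed under none of the 4 scalings. The predicted sequence read 41.9, 38.8 and 30.6 TPM against 14.1, 6.32 and 11.3 TPM, and fell by 1.77 (adjusted p = 0.0122). In all 3, library 2 of moderate hypoxia was lowest and library 1 nearest the controls. Summed over the 17 entries the level was 800, 841 and 859 TPM in control and 660, 294 and 491 TPM under moderate hypoxia. Whether these reads derive from transfer RNA, and the part of RNA quality, was not tested.

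Of the 197 predicted entries tested, 2 were higher and 15 lower, beside 3.59% higher and 13.5% lower over all entries. The 15 hold 10 distinct sequences. The most abundant has no tested known entry with its seed and is listed under 2 names.
predicted entry: uACGGUAUguuauguagacuac
It read 544, 371 and 338 TPM in control and 126, 148 and 137 TPM under moderate hypoxia, with no overlap. It fell by 1.57 (SE 0.224, adjusted p = 0.00620; without library 3, adjusted p = 0.00910) and passed under every scaling and leave-out. Another predicted entry is miR-731-y with an A added at its 3′ end.
predicted entry: cACCGGGAauuucgugucagcaa
Its fall of 1.62 (adjusted p = 0.0165) was close to that of miR-731-y, with a difference of 0.04 between them (adjusted p = 0.846). The share of the pool held by predicted entries was 0.227 ± 0.0351% in control and 0.137 ± 0.00613% under moderate hypoxia (SD, n = 3; exact two-sided permutation p = 0.1).

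Some entries were present in 1 group only. The entry miR-1582-z read 6.38, 66.0 and 46.8 TPM in control and had no read in any moderate hypoxia library. Against a floor of 3 reads in the whole group it was at least 558-fold lower (1168 reads in control; limma adjusted p = 0.00867), and the bound was 358 without control 2, 341 without moderate hypoxia 3 and 363 without moderate hypoxia 2. The control libraries themselves differed widely. Conversely miR-5108-z had no read in control and 91 reads under moderate hypoxia. It was at least 21.2-fold higher (limma adjusted p = 0.00620), or 13.8-fold without control 1 and 13.9-fold without control 2. Its mean over the 6 libraries was 1.056 TPM. Both entries, like miR-486-x, met the limit of 1 TPM only through the group in which they were high. Their p-values and bounds are therefore no separate support for the difference. The reads carry no molecular identifiers and need not be separate molecules, so this floor and the counting interval above cover counting error only.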

How the data were processed

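Liver small RNA of 3 control and 3 moderate hypoxia libraries was compared. Per the labels' protocols, RNA was extracted with Trizol and libraries were made with standard Illumina protocols. For the aligner, genome build, counting step and prediction tool, the sources used here give no name. Values were deposited as a signal named TPM per the file headers, and 0.01 stands for no read. Within a tolerance of 0.1 read, all low values of a library were multiples of the value of 1 read, which gave its number of reads. A count of 3 reads is 0.182 to 0.331 TPM. The deposited fold changes, p-values and false discovery rates were not used.

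The 474 entries that averaged 1 TPM or more were fitted as log2(TPM + 1) with limma-trend 3.58.1 (R 4.3.3), adjusted by Benjamini-Hochberg over all of them, at 0.05. Such changes understate those of low entries. Seed families sum distinct sequences. Shares were tested by exact permutation (scipy 1.17.1). The fits were tested on simulated data.

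Named entries are up to 12 largest rises and falls past the threshold of at least 10 TPM with groups that do not overlap, the 10 most abundant, all entries of miR-122, miR-210, miR-462 and miR-731, called members of 30 lists, and pairs of x and y entries among them. Other names, such as the predicted entries, miR-8159-x, miR-7977-z, miR-17-y and miR-5108-z, were chosen after their values were seen. The members and lists were chosen with earlier results of these data known. Lists match the miRNA number and take every entry of it. The x and y pairs, the 3′-end pairs and the short entries ending in CCA were examined after values were seen.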

Additional observations from a re-analysis of the deposited data

How the results depend on the processing

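The 81 calls (17 higher, 64 lower) became 19 (6, 13) without a filter, 50 (24, 26) with quantile normalization, 128 (41, 87) with all 9 libraries in the fit, 60 (35, 25) with a trimmed mean of M values, 67 (32, 35) with the median of ratios and 57 (21, 36) with miR-122-x left out of the library total. With 1 library left out, 32 to 98 passed, 6 to 40 higher and 25 to 85 lower. The lowest total came without moderate hypoxia 1 or 2 (32 each), and without control 2 it was 44. Settings chosen after seeing the data gave 2 calls (2, 0) without both moderate hypoxia 1 and 2, 35 (9, 26) without moderate hypoxia 3 and the entries high in the other 2, and 93 (43, 50) without both control 1 and moderate hypoxia 3. With the replicate number as a block 64 passed (19, 45), 55 of them among the 81. Deviations from the group mean correlated at -0.20, -0.13 and -0.11 in same-numbered libraries and at -0.0022 to 0.17 in differently numbered ones. Such deviations cannot show whether same-numbered libraries were handled together, which was not tested. The 60 seed families became 32 without a filter, 37 with quantile normalization and 104 with all 9 libraries, and 23 to 72 with 1 library left out. The 11 x and y pairs became 3 to 15 with 1 library left out, and the 6 pairs of 3′ ends 2 to 6. The causes were not tested. Pseudocounts of 0.1 and 5, a mean of at least 10 TPM, 1 feature per distinct sequence and leaving out the high entries kept the total within 1.5 times. The planned edgeR and DESeq2 fits were not run, since the deposited values are scaled, hold 0.01 in place of no read and stand in stacked tables, so whole columns were not taken as counts. Whole reads were checked for low values only.

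Values that changed sign belonged to entries that did not pass. In the order of trimmed mean, median of ratios, quantile normalization and a total without miR-122-x, miR-462-x read 0.28, 0.16, 0.020 and 0.094, miR-731-x 0.25, 0.13, 0.27 and 0.066, and miR-459-y 0.37, 0.25, 0.37 and 0.19. In that order but without those that kept their sign, miR-199-x read 0.12 and 0.00056, and miR-181-x 0.059 and 0.13. With 1 library left out miR-462-x read -0.43 to 0.018, miR-459-y -0.21 to 0.20, miR-462-z -0.19 to 0.22 and the difference in the share of sequences that begin with U -1.40 to 4.70 percentage points (2.24 with all). The value of miR-462-z was -0.0023 with a pseudocount of 5 and -0.059 without both moderate hypoxia 1 and 2. Without both control 1 and moderate hypoxia 3, miR-459-y read 0.21 and miR-462-z -0.15. Of 44 named entries that passed, miR-486-x passed under each setting that could be run for it. It met the limit on mean TPM only through the group in which it was high, so this is no separate support. Depth limits entries near 1 TPM, where 3 reads are 0.182 to 0.331 TPM.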
